A study of Mus musculus with 5 samples.

Results

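The cytosolic ribosome is built from ribosomal RNA and a fixed set of proteins, and the genes of those proteins were followed here in adult mouse cardiomyocytes that had received vectors for 4 reprogramming factors or a control vector. Genes were taken by symbol: protein-coding entries named Rpl or Rps with a number and an optional letter, and Rplp0, Rplp1, Rplp2 and Rpsa, with the Rps6k kinases, Rpl3 and its muscle form Rpl3l set aside. This gave 76 of the 12446 listed genes, 32 of the small (40S) subunit and 44 of the large (60S) subunit. The OSKM-CMs group (3 libraries, replicates 1, 2 and 3) came from male C57BL/6 mice injected in the thoracic cavity at 8 weeks with adeno-associated virus (AAV) vectors, mixed, for Oct4-His6, Sox2-Flag, Klf4-HA and Myc-V5. The Control-CMs group (2 libraries, replicates 3 and 5) received the same kind of vector carrying blue fluorescent protein (BFP), at a titer equal to that of the 4 factor vectors together. Every vector used the promoter of cardiac troponin T (cTnT), which is active in cardiomyocytes, and the age of both groups is given as 12 to 14 weeks. Cardiomyocytes were isolated from the hearts and their total RNA was sequenced in bulk. Whether the libraries of a group are separate mice is not given in the labels, so p-values measure the spread between these libraries, which may be technical.

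Each ribosome carries 1 copy of nearly all of its proteins, and cells make these proteins at matched rates, discarding those that find no partner. Their mRNAs are short and abundant, and most begin with a C followed by a run of pyrimidines, the 5′ terminal oligopyrimidine (TOP) element, through which the kinase mTOR and the protein LARP1 tie their translation to growth signals. MYC, one of the 4 delivered factors, is known to raise ribosome production in many cell types, and the growing heart muscle cell is known to add ribosomes.

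Reads over the listed genes numbered 2691820 to 2780782 in the OSKM-CMs libraries and 3519629 and 3861808 in the controls. Genes of the mitochondrial genome took 9.76% to 11.1% of them in OSKM-CMs and 21.2% and 24.7% in controls. All 8 cardiomyocyte markers examined were present in every library, and their summed level was 16287, 19827 and 17553 scaled RPKM in OSKM-CMs replicates 1, 2 and 3 against 30136 and 32928 in the controls, with 7 of 8 lower. Among other cell types, fibroblast markers (9 of 10 listed) summed to 207, 95.5 and 215 in the same OSKM-CMs libraries and 77.2 and 39.1 in the controls, with 5 of 9 higher. Endothelial markers (10 of 10 listed) summed to 214, 98.7 and 164 against 337 and 297, with 3 of 10 lower. Leukocyte markers (7 of 12 listed) summed to 23.7, 8.20 and 40.6 against 53.8 and 13.1, and the 5 tested did not pass, with Ptprc at 0 reads in OSKM-CMs replicate 2. Mural markers summed to 111, 76.7 and 97.0 against 168 and 149, with 2 of 7 higher and 1 lower. The single erythroid marker listed, Hbb-b1, was at 1.89, 0.373 and 3.03 against 9.35 and 6.04 and called lower, and 3 epicardial markers summed to 2.51, 2.06 and 5.03 against 3.36 and 8.74. Ribosomal protein genes are expressed by all of these cell types, and the part of cell mixture in the results that follow was not tested.

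Sequence around the annotated start of transcription was taken from RefSeq (GRCm38.p6) for 56 of the 76 genes. It is printed to show runs of C and T letters near the start in genes from both ends of the ranking by change. Each window runs from 10 bases before the start to 20 bases from it, on the strand that reads as the mRNA does. Capitals mark the longest run of at least 5 C or T letters that begins with C within 5 bases of the start on either side. The first 4 belong to genes that rose, Rps12 is a gene that rose and has no such run within those 5 bases, and the last 4 belong to genes that did not pass the test.
Rpl39: gctccgCCTCTagcgacttcttctaatcgc
Rps26: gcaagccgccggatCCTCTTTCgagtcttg
Rpl12: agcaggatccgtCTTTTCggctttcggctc
Rpl35: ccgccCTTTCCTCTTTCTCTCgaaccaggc
Rps12: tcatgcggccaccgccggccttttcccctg
Rps6: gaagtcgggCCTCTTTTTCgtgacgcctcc
Rplp2: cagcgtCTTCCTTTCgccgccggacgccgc
Rps2: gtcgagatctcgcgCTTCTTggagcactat
Rps27: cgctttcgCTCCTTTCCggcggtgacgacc

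The windows lie at chrX:37085203-37085232 on the minus strand for Rpl39, chr10:128626487-128626516 on the minus strand for Rps26, chr2:32961702-32961731 on the plus strand for Rpl12 and chr2:39005112-39005141 on the minus strand for Rpl35. That of Rps12 is chr10:23787190-23787219 on the minus strand. Those of the last 4 are chr4:86857348-86857377 on the minus strand for Rps6, chr7:141447641-141447670 on the plus strand for Rplp2, chr17:24720053-24720082 on the plus strand for Rps2 and chr3:90213629-90213658 on the minus strand for Rps27. The last 20 bases of each window open the annotated transcript, in its 5′ untranslated region or first codons. A run of this kind thus stood at some genes at both ends of the ranking. The windows were chosen to show such runs, so they do not show how common a run is at either end. Rpl10a and Rpl36a, near the top, and Rpl9 and Rps3, near the bottom, had no such run and are not printed. A stricter rule asked for a C at the annotated start itself followed by at least 4 more C or T letters. Of the printed genes with a run, Rpl35, Rps6, Rplp2 and Rps27 met it and Rpl39, Rps26, Rpl12 and Rps2 did not. Over all windows it was met by 13 of 56 genes (23.2%), against 3.01% of 27025 genes with a RefSeq start. Allowing the run to begin within 5 bases of the start gave 28 of 56 (50%) against 21.2%. Annotated starts can lie some bases from the start used in these cells, so a window without a run says only that the letters are not there.

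Transcripts of ribosomal proteins were more abundant in OSKM-CMs, by a moderate amount and in most of the genes. They took 2.75%, 2.93% and 2.98% of the reads in the OSKM-CMs libraries and 1.48% and 1.54% in the controls, without overlap. The 95% Wilson intervals of these shares, which cover counting error only, were 2.73% to 2.77%, 2.91% to 2.95%, 2.96% to 3.00%, 1.46% to 1.49% and 1.53% to 1.56% in the same order. The mean share was 2.89% ± 0.120 (SD, n = 3) against 1.51% ± 0.0479 (SD, n = 2), or 1.91-fold. When reads of the mitochondrial genome were left out of the total the ratio was 1.64, with 3.22% ± 0.112 against 1.96% ± 0.125. In bulk samples such as these, fewer cells of a type and less RNA per cell cannot be told apart, and the part of the mitochondrial share in the rise per gene was not tested.

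**Figure D1:**
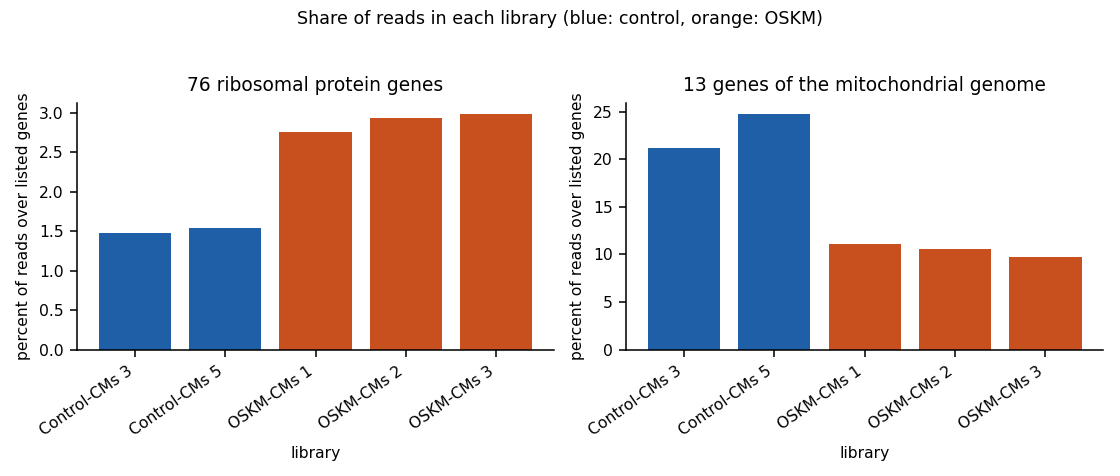
Percent of the reads over listed genes taken in each library by the 76 ribosomal protein genes (left) and by the 13 genes of the mitochondrial genome (right), with 1 bar for each library, blue for Control-CMs and orange for OSKM-CMs. The ribosomal share is 2.75% or more in the 3 OSKM-CMs libraries and at most 1.54% in the controls, and the mitochondrial share runs the other way.

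Gene by gene, levels were compared as RPKM (reads per kilobase of gene, relative to library size) rescaled so that most genes balance between libraries (TMM, trimmed mean of M values). Of the 76 genes, all of which passed the minimum of 1 RPKM with a lowest mean of 36.7, 57 rose, 0 fell and 19 did not pass (limma, Benjamini-Hochberg adjusted p below 0.05 over 10915 tested genes). Over all tested genes 15.9% were called higher and 14.3% lower, and among the 1221 tested genes at or above the level of the lowest ribosomal protein gene these shares were 24.5% and 35.9%. A log2 fold change here is that of scaled RPKM plus 1, which understates changes of low genes. The median log2 fold change of the ribosomal protein genes was 0.52, or 1.43-fold, against 0.02 for all tested genes. The middle 50% of the ribosomal genes ranged from 0.36 to 0.71 on the log2 scale, and 4 reached 1. At an unadjusted p below 0.05, 1 gene was lower, Rps27. All 3 OSKM-CMs libraries lay above both controls for 66 of the genes, against 30.0% of all tested genes and 32.9% of those at or above that level, and below both for 1, Rps27, against 27.8% and 45.5%.

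The 3 OSKM-CMs libraries lay close together. Relative to the mean of the controls, the median ribosomal protein gene stood at 0.49, 0.52 and 0.56 on the log2 scale in OSKM-CMs replicates 1, 2 and 3. The controls differed from each other by a median of 0.21, with replicate 5 above replicate 3 for 72 of 76 genes. That gap is smaller than the gap between the groups but makes the size of each rise depend on which control is used: without Control-CMs replicate 3, 34 genes were called higher and 1, Rps27, lower, with a median of 0.44, and without replicate 5 the median was 0.64. Control-CMs replicate 3 had higher fibroblast, leukocyte, endothelial, mural and erythroid marker levels than replicate 5. Its cardiomyocyte and epicardial marker levels were lower. The part of these differences in the gap between the controls was not tested.

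**Figure D2:**
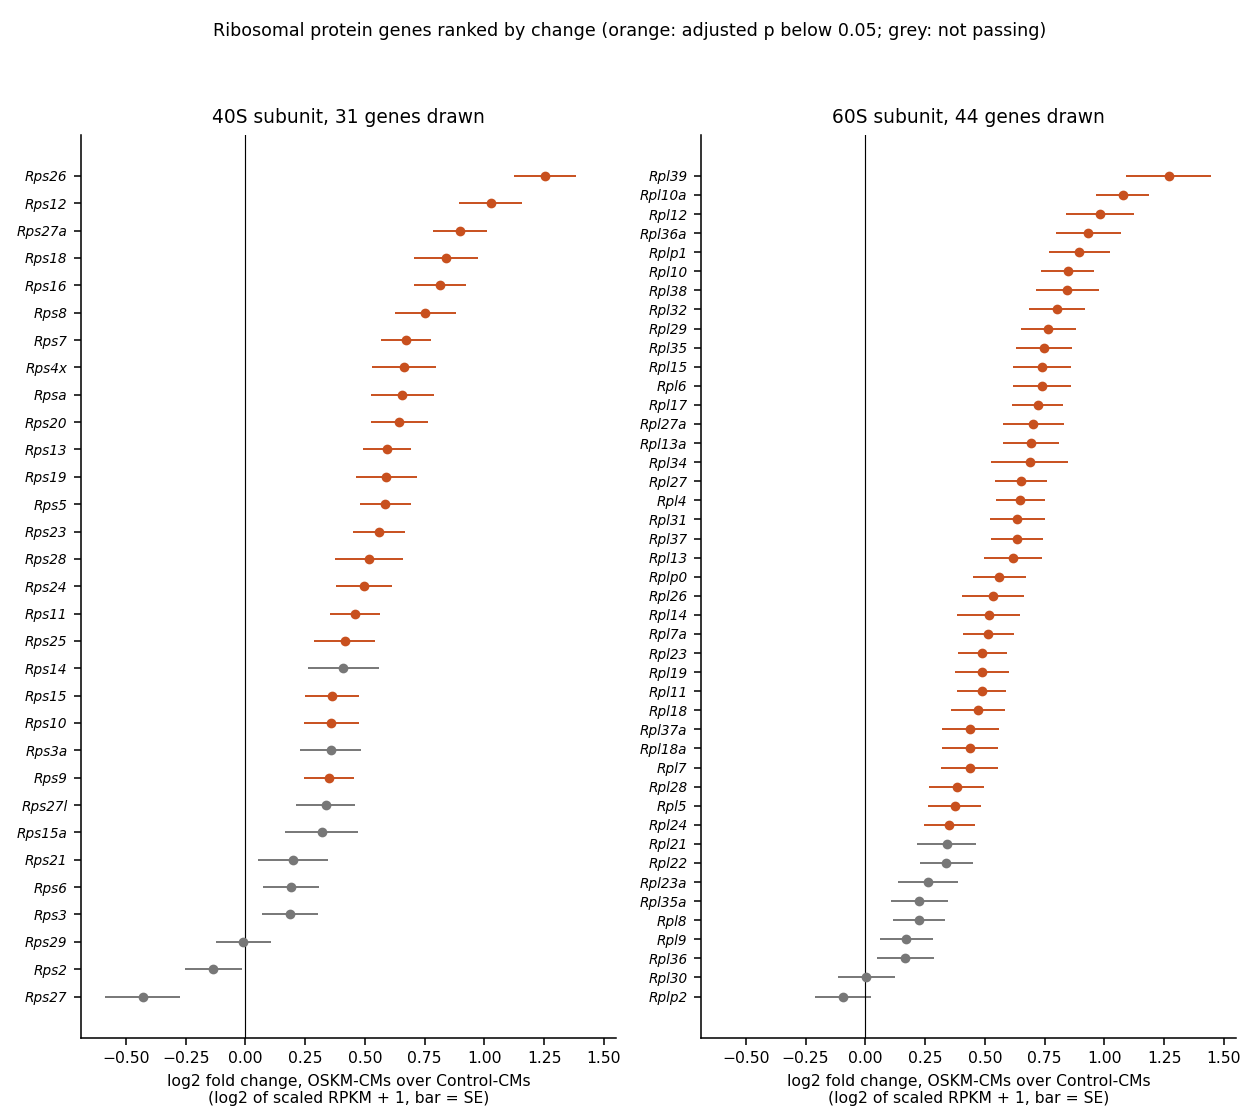
Log2 fold change of each ribosomal protein gene, OSKM-CMs over Control-CMs (x axis, log2 of scaled RPKM plus 1), ranked within the 40S (left) and 60S (right) subunit, with bars of 1 SE and called genes in orange; 1 gene of the 40S subunit is not drawn. The ranking runs from Rps27 at -0.43 to Rpl39 at 1.27, and 72 of 76 genes lie above 0; with library totals alone Rps2, Rps29 and Rplp2 do too, and Rpl30 and Rps21 fall below 0 under at least 1 alternative.

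Genes of both subunits rose. Of the 32 genes of the 40S subunit 22 rose, with a median log2 fold change of 0.48, and of the 44 of the 60S subunit 35 rose, with a median of 0.55. The difference between these medians was not tested. The standard deviation of the log2 fold changes over the genes was 0.30, and the median standard error of a single gene was 0.12. Differences between neighbours in the ranking were not tested. As a description, the log2 fold change had a Spearman correlation of -0.07 and a Pearson correlation of -0.14 with the log2 control level over 76 genes measured in the same 5 libraries, and -0.11 and -0.12 with gene length.

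The largest rise was that of Rpl39 (ENSMUSG00000079641.3), a very small protein that lies in the tunnel through which the new chain leaves the 60S subunit. Its scaled RPKM was 65.0 and 99.4 in Control-CMs replicates 3 and 5 and 208, 185 and 194 in OSKM-CMs replicates 1, 2 and 3. The level went from 82.2 ± 24.3 (SD, n = 2) to 196 ± 11.7 (SD, n = 3), 2.38-fold (log2 fold change 1.27 ± 0.18 SE, adjusted p = 0.00221 by limma). Of the other proteins that line or surround the tunnel, Rpl4, Rpl17, Rpl19, Rpl26, Rpl31 and Rpl35 also rose, with log2 fold changes from 0.49 to 0.75. In all 7 of 8 were called (87.5%), where 75% of all 76 ribosomal protein genes were. Rpl19 and Rpl26 lost their calls without Control-CMs replicate 3 or OSKM-CMs replicate 3 (limma adjusted p of up to 0.0825 and 0.1002). Rpl23a, a docking site for factors that meet the emerging chain, had a log2 fold change of 0.26 that did not pass (limma adjusted p = 0.153). Rpl4 was at 302 and 303 in the controls and 453, 472 and 499.7 in OSKM-CMs, with no overlap and controls that nearly coincided. Rpl35, the ribosomal gene with the fewest reads (93 in Control-CMs replicate 3), was at 24.2 and 27.5 in the controls and 44.4, 44.6 and 43.0 in OSKM-CMs, and it too showed no overlap.

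Rpl10a (ENSMUSG00000037805.8), the protein of the mobile stalk beside the exit site for transfer RNA, had a scaled RPKM of 60.4 and 69.3 in Control-CMs replicates 3 and 5 and 138, 137 and 138 in OSKM-CMs replicates 1, 2 and 3. The OSKM-CMs libraries differed from each other by less than 1% of their mean, and the level rose from 64.9 ± 6.27 (SD, n = 2) to 138 ± 0.518 (SD, n = 3), 2.12-fold (log2 fold change 1.08 ± 0.11 SE, adjusted p = 0.000599 by limma). Rpl36a, a 60S protein near the same site, rose 1.92-fold from 48.4 to 92.9 (limma adjusted p = 0.0024). Rpl10, which is added late and completes the subunit near its catalytic centre, was at 132 and 147 in the controls and 249, 242 and 265 in OSKM-CMs and rose 1.8-fold (limma adjusted p = 0.00148).

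The lateral stalk of the 60S subunit, which recruits the translation factors that split GTP, had 3 of its 4 genes higher. That share, 75%, is the same as over all 76 ribosomal protein genes. Rpl12, which lies at its base, was at 63.6 and 85.0 in the controls and 150.1, 139 and 150.1 in OSKM-CMs and rose 1.97-fold (log2 fold change 0.98 ± 0.14 SE, adjusted p = 0.00239 by limma). Rplp0, the scaffold of the stalk, was at 480.5 and 560.0 in the controls and 768, 766 and 764 in OSKM-CMs and rose 1.47-fold (log2 fold change 0.56 ± 0.11 SE, adjusted p = 0.00828 by limma). Rplp1 and Rplp2 form the pairs that hang from this scaffold. Rplp1 (ENSMUSG00000007892.7), the ribosomal protein gene with the highest RPKM in both groups, was at 602 and 761 in the controls and 1286, 1239 and 1252 in OSKM-CMs and rose 1.85-fold (log2 fold change 0.89 ± 0.13 SE, adjusted p = 0.00224 by limma). Rplp2 (ENSMUSG00000025508.7) was at 96.3 and 107 in the controls and 88.9, 96.8 and 101 in OSKM-CMs, with overlapping groups (log2 fold change -0.09 ± 0.12 SE, adjusted p = 0.578 by limma; 95% interval of the log2 fold change -0.36 to 0.18). The ratio of Rplp1 to Rplp2 in scaled RPKM was 6.25 and 7.08 in the controls and 14.5, 12.8 and 12.4 in OSKM-CMs. The groups did not overlap in this ratio. An exact 2-sided permutation test over the 5 libraries, which doubles the smaller tail, gave p = 0.2. That is the smallest value this form of the test can give with 2 against 3 libraries. The ratio does not depend on the scaling between libraries, but the authors' gene length enters it, 492 bases for Rplp1 and 2066 for Rplp2. The pair was picked after its values were seen among genes named for the stalk.

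The proteins that hold the 5S ribosomal RNA, Rpl5 and Rpl11, which also bind the p53 regulator Mdm2 when ribosome assembly fails, rose by similar amounts. Rpl11 was at 57.0 and 58.2 in the controls and 79.3, 82.4 and 81.6 in OSKM-CMs and rose 1.41-fold (log2 fold change 0.49 ± 0.10 SE, adjusted p = 0.0115 by limma). Rpl5 was at 71.0 and 75.3 in the controls and 89.2, 97.2 and 99.1 in OSKM-CMs and rose 1.30-fold (log2 fold change 0.37 ± 0.11 SE, adjusted p = 0.0378 by limma). Neither overlapped between groups. Rpl5 lost its call without any 1 library and with limma without trend and robust variance, with an adjusted p of up to 0.154, and Rpl11 lost its call without either control (adjusted p of up to 0.0576). Among genes of the p53 arm, Cdkn1a rose 3.48-fold (limma adjusted p = 0.00552), the only 1 of 4 to pass.

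In the 40S subunit the largest rise was that of Rps26 (ENSMUSG00000025362.5), which lies where mRNA leaves the subunit and contacts the bases before the start codon. Its scaled RPKM was 148 and 188 in Control-CMs replicates 3 and 5 and 403, 382 and 412 in OSKM-CMs replicates 1, 2 and 3. It rose 2.37-fold, from 168 ± 28.4 (SD, n = 2) to 399 ± 15.6 (SD, n = 3) (log2 fold change 1.25 ± 0.13 SE, adjusted p = 0.000615 by limma), and every OSKM-CMs library had more than 2 times the higher control. Rps12 (ENSMUSG00000061983.5), a protein of the subunit's beak that is known to monitor ribosome loss in fly cell competition, was at 377 and 483 in the controls and 883, 833 and 898 in OSKM-CMs and rose 2.02-fold (log2 fold change 1.03 ± 0.13 SE, adjusted p = 0.00145 by limma). The third was Rps27a (ENSMUSG00000020460.9), made as a fusion with ubiquitin, at 62.7 and 72.0 in the controls and 121, 127 and 131 in OSKM-CMs, a rise of 1.87-fold (log2 fold change 0.90 ± 0.11 SE, adjusted p = 0.00143 by limma). None of these genes overlapped between groups. The other proteins of the mRNA exit side, Rpsa and Rps28, rose 1.58-fold (limma adjusted p = 0.00877) and 1.42-fold (0.0295), and those of the decoding centre, Rps23 and Rps15, rose 1.48-fold (0.00757) and 1.29-fold (0.0439). Of the 17 ways of processing tried (the one reported and 16 alternatives), Rps15 was called higher in 10, losing its call without any 1 library (adjusted p of up to 0.172), Rps28 in 13 (up to 0.158) and Rpsa in 16 (up to 0.0514), with the highest p of each without Control-CMs replicate 3.

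The 2 genes listed for the mRNA entry site and the target of S6 kinases did not pass. Rps2 and Rps3, which lie at the channel where mRNA enters and help unwind it, had log2 fold changes of -0.13 and 0.19 (limma adjusted p = 0.431 and 0.271). Rps9, another protein of that channel that was not in the list, was called higher (log2 fold change 0.35, limma adjusted p = 0.0391). Its call held in 11 of the 17 ways of processing. Rps2 was at 444 and 510.0 in the controls and 410.1, 471 and 422 in OSKM-CMs, and Rps3 at 77.4 and 86.0 in the controls and 85.8, 97.8 and 95.5 in OSKM-CMs, with overlapping groups in each. Rps6, the protein phosphorylated by S6 kinases downstream of mTOR, was at 156 and 178 in the controls and 175, 199 and 196 in OSKM-CMs. Its log2 fold change was 0.19 (SE 0.12, limma adjusted p = 0.26; 95% interval of the log2 fold change -0.08 to 0.46), an interval that holds a change of 0 but ends below the median of the ribosomal protein genes. Rps29, a small zinc-binding protein of the head, was at 379.7 and 429 in the controls and 387, 431 and 389 in OSKM-CMs (log2 fold change -0.01 ± 0.11 SE, adjusted p = 0.967 by limma), and in the 60S subunit Rpl30 was at 61.0 and 69.6 in the controls and 60.5, 68.5 and 67.4 in OSKM-CMs (log2 fold change 0.00 ± 0.12 SE, adjusted p = 0.98 by limma). Rpl9 and Rpl36 had log2 fold changes of 0.17 and 0.17 (limma adjusted p = 0.283 and 0.322). Scaling by library totals alone shifted the all-gene median from 0.02 to 0.36, and there Rps29, Rpl30, Rps3, Rps6, Rpl9 and Rpl36 passed as higher, Rps29 with 0.41 on the log2 scale (limma adjusted p = 0.0135), while Rps2 and Rplp2 were positive without passing.

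**Figure D3:**
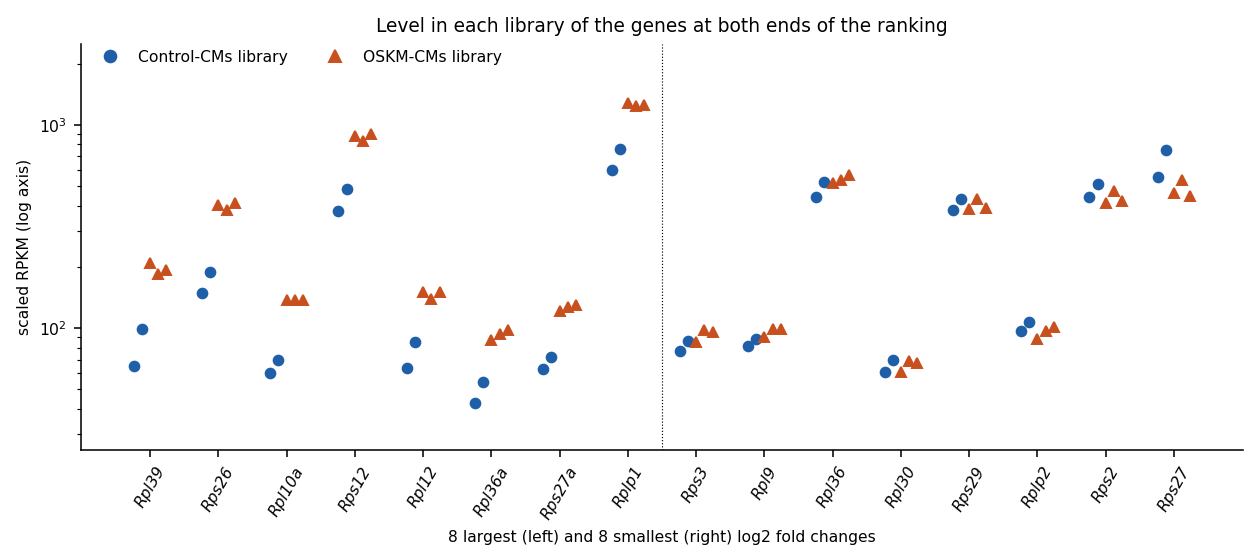
Scaled RPKM (log axis) in every library of the 8 genes with the largest and the 8 with the smallest log2 fold change, with a blue circle for each Control-CMs library and an orange triangle for each OSKM-CMs library. On the left all triangles lie above both circles, from Rpl39 to Rplp1; on the right Rpl9 lies just above and Rps27 below its controls, and the other 6 genes overlap.

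Rps27 (ENSMUSG00000090733.1), a zinc-binding protein of the 40S platform, had the lowest log2 fold change of the 76. Its scaled RPKM was 554 and 754 in Control-CMs replicates 3 and 5 and 464, 534 and 446 in OSKM-CMs replicates 1, 2 and 3. All OSKM-CMs libraries lay below both controls, from 654 ± 141 (SD, n = 2) to 481 ± 46.5 (SD, n = 3), with a log2 fold change of -0.43 (SE 0.16, limma adjusted p = 0.0742) that did not pass. It was called lower in a fit that left out Control-CMs replicate 3 (log2 fold change -0.65, adjusted p = 0.0252) and by limma voom on recovered reads (adjusted p = 0.0349), and it was at -0.01 with library totals alone. Its paralogue Rps27l, known as a p53 target in other cells, was at 79.8 and 96.1 in the controls and 107, 117 and 109 in OSKM-CMs and did not pass (log2 fold change 0.34 ± 0.12 SE, adjusted p = 0.0763 by limma). The ratio of Rps27 to Rps27l was 6.95 and 7.84 in the controls and 4.35, 4.56 and 4.10 in OSKM-CMs, without overlap and whatever the scaling. The same exact 2-sided permutation test on this pair gave p = 0.2, again the smallest value that this form of the test can give. This pair was also picked with its values known. The paralogues encode near-identical proteins, and how the authors' counting treated reads that match both is not given in the sources used here.

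Genes whose loss of 1 copy is reported in Diamond-Blackfan anaemia, a failure of red cell production, rose in 14 of 18 cases (77.8%). That is near the 75% of all ribosomal protein genes that rose, and the median was 0.49 against 0.52 for all of them. Rps19, the most often affected, was at 32.5 and 40.1 in the controls and 52.6, 56.8 and 55.3 in OSKM-CMs and rose 1.51-fold (log2 fold change 0.59 ± 0.13 SE, adjusted p = 0.0124 by limma). Rpl15 rose 1.68-fold, Rps7 1.60-fold, Rpl27 1.58-fold, Rps24 1.40-fold, Rpl18 1.39-fold and Rps10 1.28-fold, with limma adjusted p from 0.0031 to 0.0484. Rps10 was called higher in 9 of the 17 ways of processing and lost its call without any 1 library (adjusted p of up to 0.236). Without Control-CMs replicate 3, Rps19, Rps24 and Rpl18 also lost their calls, with log2 fold changes of 0.44, 0.36 and 0.40. Rps24 and Rpl18 lost theirs without OSKM-CMs replicate 1 too (limma adjusted p = 0.0517 and 0.0581). The same held without OSKM-CMs replicate 3 (limma adjusted p = 0.0595 and 0.0573). Besides Rps27 and Rps29, the members of that list that did not pass were Rps15a at 0.32 and Rpl35a at 0.23 on the log2 scale. Rps4x, which has close copies in the genome whose reads may be shared, was at 234 and 299 in the controls and 395, 431 and 433 in OSKM-CMs and rose 1.58-fold, and Rpl27a rose 1.63-fold. Of 5 paralogues outside the count, 3 rose and 1 fell. The muscle form Rpl3l fell from 103 ± 11.1 (SD, n = 2) to 10.9 ± 4.67 (SD, n = 3) (limma adjusted p = 0.000874) and the broad form Rpl3 rose from 85.9 ± 7.04 (SD, n = 2) to 492 ± 19.9 (SD, n = 3) (1.83e-05). Rpl22l1, the relative of Rpl22, rose 2.22-fold (limma adjusted p = 0.00356).

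Some subunit genes have names that do not show it. Gnb2l1, the gene of the 40S scaffold protein RACK1, rose 1.48-fold (limma adjusted p = 0.0175), and Fau, made as a fusion with a relative of ubiquitin, had a log2 fold change of 0.32 that did not pass (0.111). Of 13 other mRNAs known to carry a TOP element, 6 rose (46.2%, against 15.9% of all tested genes) and 7 did not pass, with a median of 0.32. They were led by Eef1a1, the broad form of the factor that delivers transfer RNA, at 14.5-fold (limma adjusted p = 1.83e-05), Npm1, a nucleolar chaperone, at 2.86-fold (0.000189), Pabpc1, the poly(A)-binding protein, at 3.15-fold (0.00146), and Eif3e, an initiation factor subunit, at 2.43-fold (0.000389). Among ribosomal protein genes with a RefSeq window, the 13 genes with the element at the annotated start had a median log2 fold change of 0.36, with 7 called higher. The 43 without had 0.59, with 38 called. With the run allowed to begin within 5 bases of the start, the gap was smaller. The 28 genes with it had a median of 0.51, with 20 called, and the 28 without had 0.59, with 25 called. Neither difference was tested.

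Short motifs were also counted in the RefSeq windows of 300 bases, 250 before to 50 after the start, on both strands. CACGTG, the core of the E-box bound by MYC, stood in 6 of 56 ribosomal protein genes (10.7%) and in 8.09% of all genes with a window. The genes that hold it, Rpl13a, Rpl14, Rpl19, Rpl23, Rpl34 and Rps19, were all called higher, as were 39 of the 50 without it, and the medians were 0.55 and 0.55. CCGGAAG, a core bound by ETS factors such as GABP, stood in 23 genes (41.1%) against 9.93% of all, with a median log2 fold change of 0.64 and 18 of 23 called higher where present, and 0.52 and 27 of 33 where not. ATGCAAAT, the octamer bound by Oct factors, stood in 0 of the 56 and in 1.97% of all genes. These matches are descriptions of the windows, and binding was not measured.

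Assembly factors build the subunits in the nucleolus. In that list 25 of 35 were higher (71.4%) and 1, Lyar, lower, with a median log2 fold change of 0.75. Over all tested genes 15.9% were called higher and 14.3% lower. Besides Npm1, the largest called changes were those of Gnl3 (nucleostemin) at 2.85-fold, the RNA methyltransferase Nop2 at 2.66-fold and Bop1, which processes the 60S precursor, at 2.51-fold (limma adjusted p = 0.000272, 0.00071 and 0.00254). Mitochondrial ribosomal proteins serve the separate ribosome of that organelle. Of their 75 genes, 2 were higher (2.67%, against 15.9% of all tested genes) and 21 lower (28.0%, against 14.3%). The other 52 did not pass, and the median was -0.15. The largest called changes were those of Mrpl55, Mrpl14, Mrpl18 and Mrps24 (log2 fold changes -1.02, -0.91, -0.90 and -0.83, limma adjusted p from 0.00258 to 0.0118). Genes of the mTOR pathway and of TOP control had 2 of 19 higher (10.5%), 1 lower (5.26%) and a median of -0.13. Both shares lie below those of all tested genes. Eif4ebp1, an inhibitor of cap-dependent translation that mTOR inactivates, rose 2.67-fold (limma adjusted p = 0.000301), Rictor rose 1.48-fold (0.0487) and Tsc2 fell by 0.49 on the log2 scale (0.0389). The lists were not tested against each other.

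**Figure D4:**
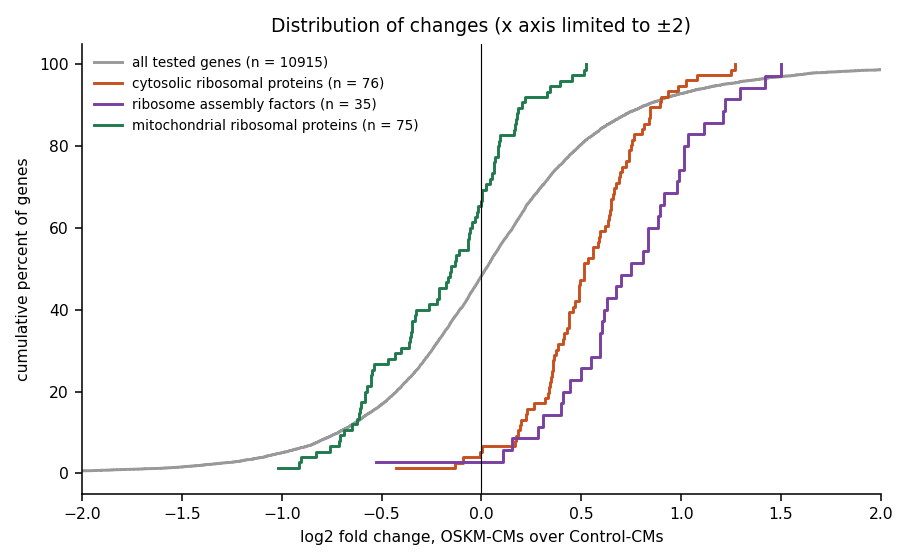
Cumulative percent of genes (y axis) up to each log2 fold change, OSKM-CMs over Control-CMs (x axis, limited to 2 on either side), for all tested genes and 3 lists. The curve of cytosolic ribosomal proteins (median 0.52) lies to the right of all tested genes (median 0.02) over most of its range, that of assembly factors further right (median 0.75) and that of mitochondrial ribosomal proteins to the left (median -0.15).

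In the authors' deposited table, 56 of the 76 ribosomal protein genes had an FDR below 0.05 and a positive log2 fold change and 0 a negative one, where 16.4% of all listed genes were higher and 15.4% lower by that rule. The size of the rise depends on how libraries are set against each other. With library totals alone 73 of the genes were higher, with a median of 0.93 against 0.36 for all genes, and over all tested genes that setting called 3985 higher and 650 lower, against 1740 and 1558 with TMM. Of the 76 genes, 33 were called higher under all 17 ways of processing tried, among them Rpl39, Rps26, Rpl10a, Rps12, Rpl12, Rpl36a, Rps27a and Rplp1. Rps27, Rps2 and Rplp2 were called higher under none of them. Many ribosomal protein genes have processed copies elsewhere in the genome, and 39 of the 76 had at least 1 named pseudogene among the listed genes. In a library, the named pseudogenes together held 1.45% to 1.57% as many reads as all 76 ribosomal protein genes together. That total includes the 37 genes without a named pseudogene. Set against its own parent gene over all libraries, the largest share was that of Rpl38 at 15.8% (named for that value). With pseudogene reads added to the parents 57 genes were called higher, with a median of 0.52. Rpl22 gained a call and Rpl28 lost its call (limma adjusted p = 0.0486 and 0.0546).

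**Figure D5:**
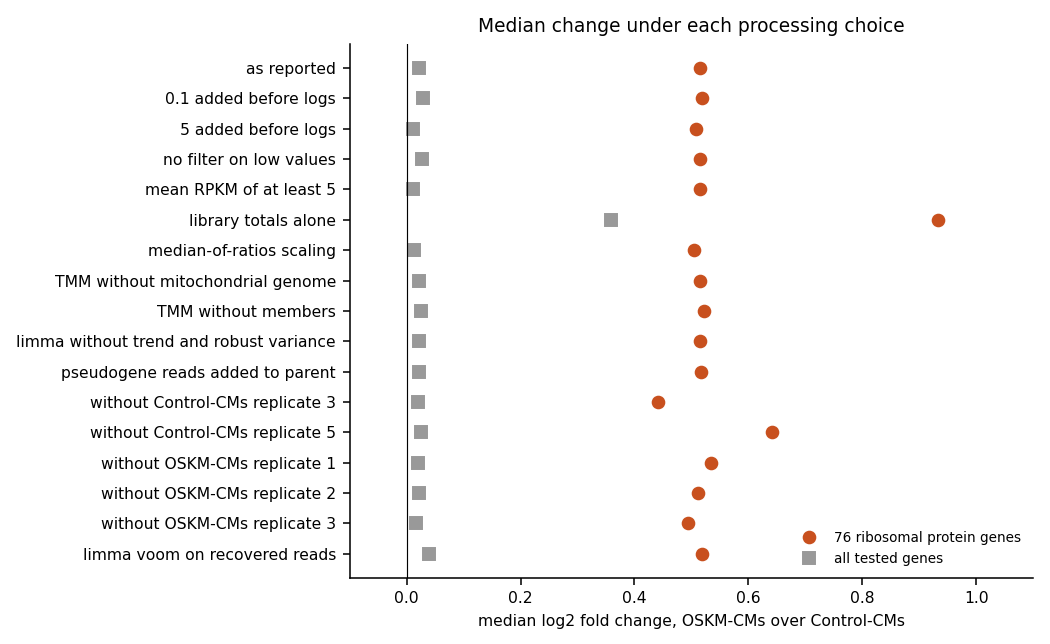
Median log2 fold change, OSKM-CMs over Control-CMs (x axis), of the 76 ribosomal protein genes (orange circles) and of all tested genes (grey squares) under each processing choice (rows). The ribosomal median lies between 0.44 and 0.93 and above that of all genes in each row; with library totals alone both medians move right, to 0.93 and 0.36.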

How the data were processed

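The authors deposited 1 table of 12446 genes with an RPKM value for each of 5 libraries. No header names the unit, which was worked out from the values; fragments in place of reads cannot be told apart. Per the file headers it also holds the authors' log2 fold change and average log2 abundance, their likelihood-ratio score, and their p-value and FDR for each gene. The build mm9 and the tools STAR 2.5.3, HTSeq, Trimmomatic, FastQC and CASAVA 1.8.2 are listed in the submitters' processing notes; annotation, strand setting and the treatment of reads shared between genes are not given in the sources used here. Every listed gene reached 1 CPM in 2 libraries or more.

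Whole reads were recovered from the steps of the RPKM values, to within 0.0001 reads for 12446 genes (100%), and summed to totals that matched the ratios between libraries within 30 reads. A common factor was settled from the authors' abundance for 440 genes, 4 of them ribosomal. Ribosomal protein genes had 93 to 3946 reads in a library, a counting error of 4.18% for the median gene in its shallowest library and 10.4% for Rpl35. The gene lengths implied by the authors' values run from 341 to 6256 bases, and levels of different genes depend on them.

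RPKM were divided by TMM factors computed on recovered reads (30% of log ratios and 5% of abundances trimmed). Tested genes (10915) had an unscaled mean of 1 RPKM or more. In R 4.3.3, limma 3.58.1 was run on log2 values (1 added) with abundance trend and robust empirical Bayes, 2-sided, with Benjamini-Hochberg adjustment over all tested genes at 0.05; folds are ratios of mean scaled RPKM. Intervals of log2 fold changes are at 95% from the same fit. The scripts were tested on simulated data. Alternatives were other added values, filters, scalings, limma voom, limma without trend, leaving out each library and, chosen after seeing the data, adding pseudogene reads. Named genes were those in lists of structural and disease roles, the 8 largest and 8 smallest changes, and up to 4 called genes from each pathway list. The members and lists were chosen with earlier results of these data known. RefSeq windows were matched by symbol. Values of 2 single genes are not reported here.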

Additional observations from a re-analysis of the deposited data

How the results depend on the processing

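No paired analysis was possible because a single replicate number, 3, occurs in both groups. The median log2 fold change of the ribosomal protein genes was positive under all 16 alternatives. It moved by more than its spread over OSKM-CMs libraries with library totals alone, to 0.93, and when libraries were left out in turn it ran from 0.44 to 0.64. Leaving out libraries gave 34 to 49 genes called higher and 0 to 1 called lower, with fewer libraries in each fit. The low end was without Control-CMs replicate 3, which leaves 1 control that is assumed to vary like the other libraries. The count of genes called lower was 1 with limma voom (Rps27), which used the recovered reads and called 1902 of all genes higher and 1886 lower. Over all tested genes the called genes numbered 2215 to 3066 without 1 library, against 3298. Of single genes, Rps29 turned from -0.01 to 0.41 with library totals alone, where it passed. With limma without trend and robust variance 44 genes were higher, and with median-of-ratios scaling 52. The cause of these differences was not tested. With 2 controls, 63 ribosomal genes had an unadjusted p below 0.05, 6 of which did not pass the adjustment.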
